A study of Mus musculus with 6 samples.

Results

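The genes described here are those of the core spliceosome, the SR proteins and the hnRNP proteins, taken as every gene whose symbol starts with Srsf, Hnrnp, Sf3a, Sf3b, Prpf, U2af or Snrp and that had a probe set paired with exactly 1 gene symbol. There were 56 such genes, read by 74 probe sets, of 10261 genes and 11288 probe sets with 1 symbol in all. RNA of untreated primary mouse cells had been hybridised to 6 Affymetrix MoGene-1_0-st arrays, on which each probe set gives 1 signal per array. The labels name 3 arrays as keratinocytes of newborn mice (postnatal day 0) and 3 as mouse embryonic fibroblasts (MEFs) of E13.5, each numbered as biological replicates. The paper's methods describe keratinocytes from back skin and MEFs from C57BL/6J embryos, whereas the isolation protocol in the labels names DR-4 as the strain and pools the bodies of several embryos without head and inner organs. No genotype is given for the keratinocytes, and no allele or agent is named for either group. The values are log2 signals, so a difference of 1 is a change of 2-fold, and every difference below is arrays labelled keratinocytes minus arrays labelled MEFs.

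The spliceosome removes introns from pre-mRNA. Small nuclear ribonucleoproteins (snRNPs), each built on a small RNA held in a ring of Sm proteins, recognise the ends of the intron and its branch site, and the SF3A, SF3B and U2AF proteins help the U2 snRNP to find the branch site and the 3′ splice site. PRPF proteins (pre-mRNA processing factors) act at many steps, from the snRNPs that join early to the particles that cut and ligate. SR proteins bind exons and mostly favour their inclusion, whereas hnRNP proteins coat pre-mRNA and often favour skipping, and regulators of both kinds take part in exon choices that differ between epithelial and mesenchymal cells.

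The labels did not match the markers. Cdh1, which encodes E-cadherin of epithelial junctions, averaged 2.92 under the keratinocyte label and 8.65 under the MEF label (difference −5.73, adjusted p = 4.03e-07, limma). Vim, which encodes vimentin of mesenchymal cells, averaged 11.97 under the keratinocyte label and 3.84 under the MEF label (difference 8.14, adjusted p = 7.89e-10). All 12 measured keratinocyte markers were lower and all 12 fibroblast and mesenchyme markers were higher under the keratinocyte label. Some markers of other cell types also differed between the labels. The macrophage gene Cd68, the 1 of its 4 markers measured, averaged 4.64 under the keratinocyte label, where it was above background on no array, and 8.56 under the MEF label. Col2a1 of cartilage averaged 8.68 under the keratinocyte label and 5.06 under the MEF label. Nes of neural precursors averaged 6.84 under the keratinocyte label and 2.55 under the MEF label. Tubb3, the other neural marker measured, did not pass an adjusted p under 0.05 (difference −0.07, adjusted p = 0.605). Des of muscle averaged 5.92 under the keratinocyte label, where 1 array was above background, and 2.05 under the MEF label. Ckm, the other muscle marker measured, did not pass (adjusted p = 0.128) and was under background on all arrays. Sox9 of cartilage was lower under the keratinocyte label (difference −0.85) and the endothelial gene Kdr was under background on all arrays. Single markers do not show that a whole cell type differs, and the part of other cell types in the splicing values was not tested. Values are given under the keratinocyte label and under the MEF label throughout, and each direction holds for the label only. In bulk RNA, fewer cells of a type and less RNA per cell cannot be told apart, and because each label is 1 group of arrays, differences of age, culture and processing cannot be told apart from cell type either. Pearson's r over probe sets, which are not independent replicates, was 0.976 to 0.982 between arrays labelled keratinocytes, 0.986 to 0.990 between arrays labelled MEFs and 0.721 to 0.740 across the labels. The background of an array was set from 10 probe sets of olfactory receptors, at their 95th percentile, and lay between 5.49 and 5.92 under the keratinocyte label and between 6.05 and 6.58 under the MEF label.

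Of the 56 splicing genes, 21 were lower under the keratinocyte label and 11 were higher at a Benjamini-Hochberg adjusted p under 0.05 in limma, and 24 did not pass. Over all 10261 genes, 41.7% were lower, 32.9% were higher and 74.5% passed in either direction, while 57.1% of the splicing genes passed. The values of the 3 arrays of one label did not overlap those of the other for 32 splicing genes (57.1%), 12 higher and 20 lower, against 78.4% of all genes, of which 35.0% were higher and 43.4% lower. The differences were small, with a median size of 0.31 on the log2 scale for the splicing genes and 0.57 for all genes. With each gene read by its brightest probe set, only Snrpb reached a difference of 1 in size. A dimmer probe set of Snrpc, described below, also did (−1.07). The median signed difference was −0.06 for the splicing genes and −0.12 for all genes, but it was 0.04 for the splicing genes and −0.02 for all genes when each array was centred on its median, and then 15 splicing genes were higher and 17 lower, beside 37.0% and 36.4% of all genes. The splicing genes held 49 members above background on all 6 arrays, and Prpf18, Prpf40b and Sf3b6 were above it on none. With 3 arrays against 3, an exact permutation test of a single gene cannot go below p = 0.1. The p-values given are therefore those of the fit across all genes. They set the difference between the labels against the spread of arrays within a label, which the fit partly takes from all probe sets.

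**Figure D1:**
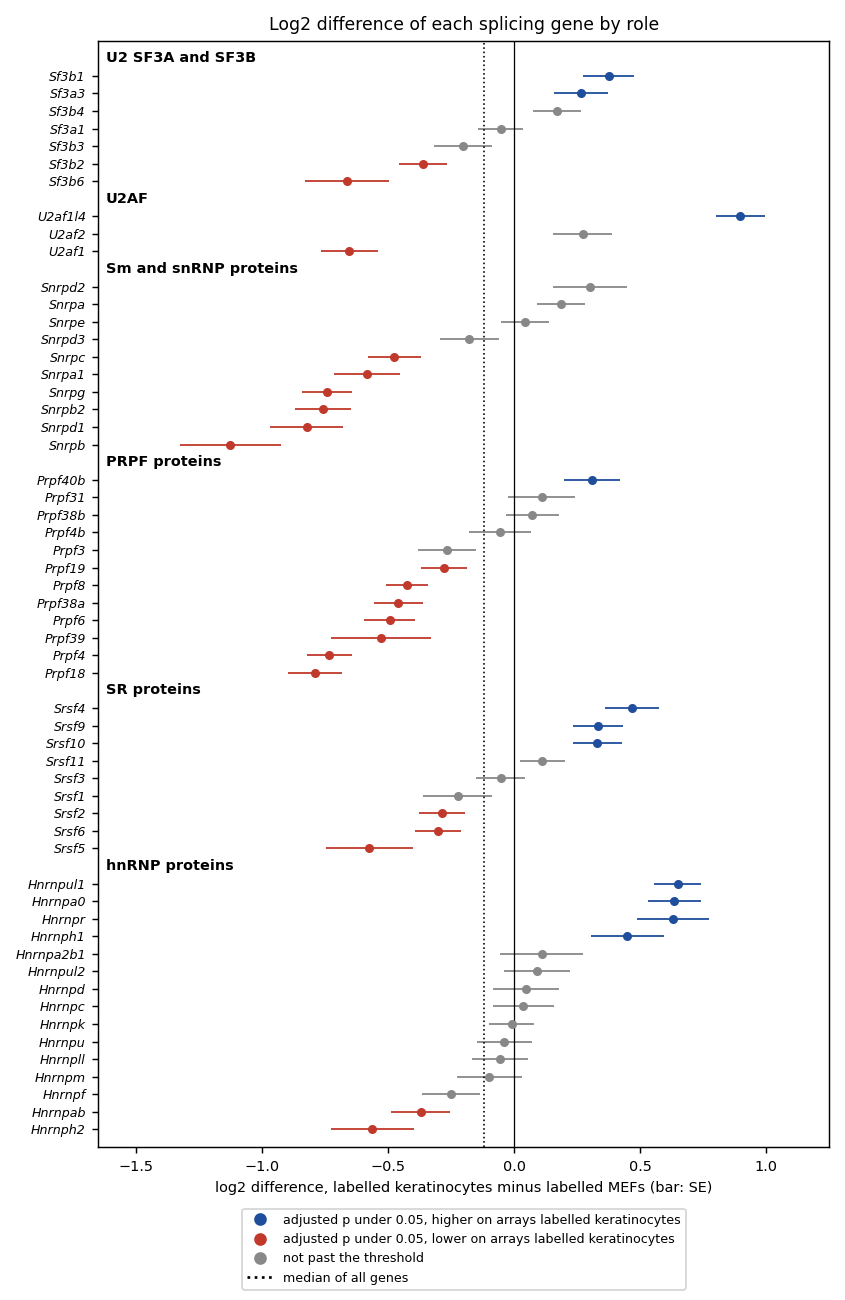
Log2 difference (labelled keratinocytes minus labelled MEFs) of the 56 splicing genes, grouped by role, with bars for the standard error and colours for the call at an adjusted p under 0.05. The Sm and snRNP genes reach down to −1.13 with none called higher, whereas the hnRNP genes lie on both sides of 0 and the dotted line marks the median of all genes at −0.12.

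Among the 10 genes of the Sm and snRNP proteins, 6 were lower under the keratinocyte label and none was called higher, with a median difference of −0.53. Over all genes 41.7% were lower and 32.9% higher, with a median difference of −0.12. Snrpb, which encodes the SmB proteins of the ring that all major spliceosomal snRNPs except U6 share, had log2 signals of 7.31, 8.10 and 8.06 under the keratinocyte label and 8.97, 8.88 and 9.00 under the MEF label. The 2 sets of arrays did not overlap, although replicate 1 labelled keratinocytes lay apart from the other two. Snrpb was 2.18-fold lower under the keratinocyte label (difference −1.13 ± 0.20, SE, n = 3 per label, adjusted p = 0.00107), and the difference was −0.87 without that replicate. Snrpd1, which encodes the SmD1 protein of the same ring, read 7.36, 7.85 and 7.88 under the keratinocyte label and 8.59, 8.50 and 8.46 under the MEF label. It was 1.77-fold lower (difference −0.82 ± 0.15, SE, adjusted p = 0.00105), and again replicate 1 labelled keratinocytes was the lowest array. Snrpg, which encodes the ring's SmG, read 7.78, 7.77 and 7.63 under the keratinocyte label and 8.35, 8.56 and 8.50 under the MEF label, a 1.67-fold lower signal with no overlap (difference −0.74 ± 0.10, SE, adjusted p = 0.000181).

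The other 3 Sm and snRNP genes that were lower encode proteins bound to a single snRNP. Snrpb2, which encodes the U2 B″ protein of the U2 snRNP, read 7.57, 7.45 and 7.74 under the keratinocyte label and 8.21, 8.42 and 8.42 under the MEF label. The groups did not overlap, and Snrpb2 was 1.69-fold lower (difference −0.76 ± 0.11, SE, adjusted p = 0.00034). Its partner in the U2 snRNP, the A′ protein encoded by Snrpa1, was 1.50-fold lower (difference −0.58, adjusted p = 0.00404), and Snrpc, which encodes the C protein of the U1 snRNP, which steadies its pairing with the 5′ splice site, was 1.39-fold lower (difference −0.48, adjusted p = 0.00338). The remaining 4 did not pass. Snrpd3 and Snrpe, 2 further ring proteins, differed by −0.18 (adjusted p = 0.202) and 0.04 (adjusted p = 0.699). Snrpd2, which encodes the SmD2 partner of SmD1 in the ring, read 7.07, 7.44 and 7.65 under the keratinocyte label and 7.08, 7.00 and 7.17 under the MEF label (difference 0.30 ± 0.15, SE, adjusted p = 0.0964). Snrpa, which encodes the A protein of the U1 snRNP, read 9.04, 9.26 and 9.24 under the keratinocyte label and 9.01, 8.98 and 8.99 under the MEF label, without overlap but short of the threshold (difference 0.19, adjusted p = 0.107). Both Snrpa and Snrpd2 were called higher with median centring (adjusted p = 0.0282 and 0.0365) and without replicate 1 labelled keratinocytes (adjusted p = 0.0286 and 0.00722), whereas the count of 6 lower genes stayed at 6 with median centring and was 6 or 7 when any single array was left out.

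**Figure D2:**
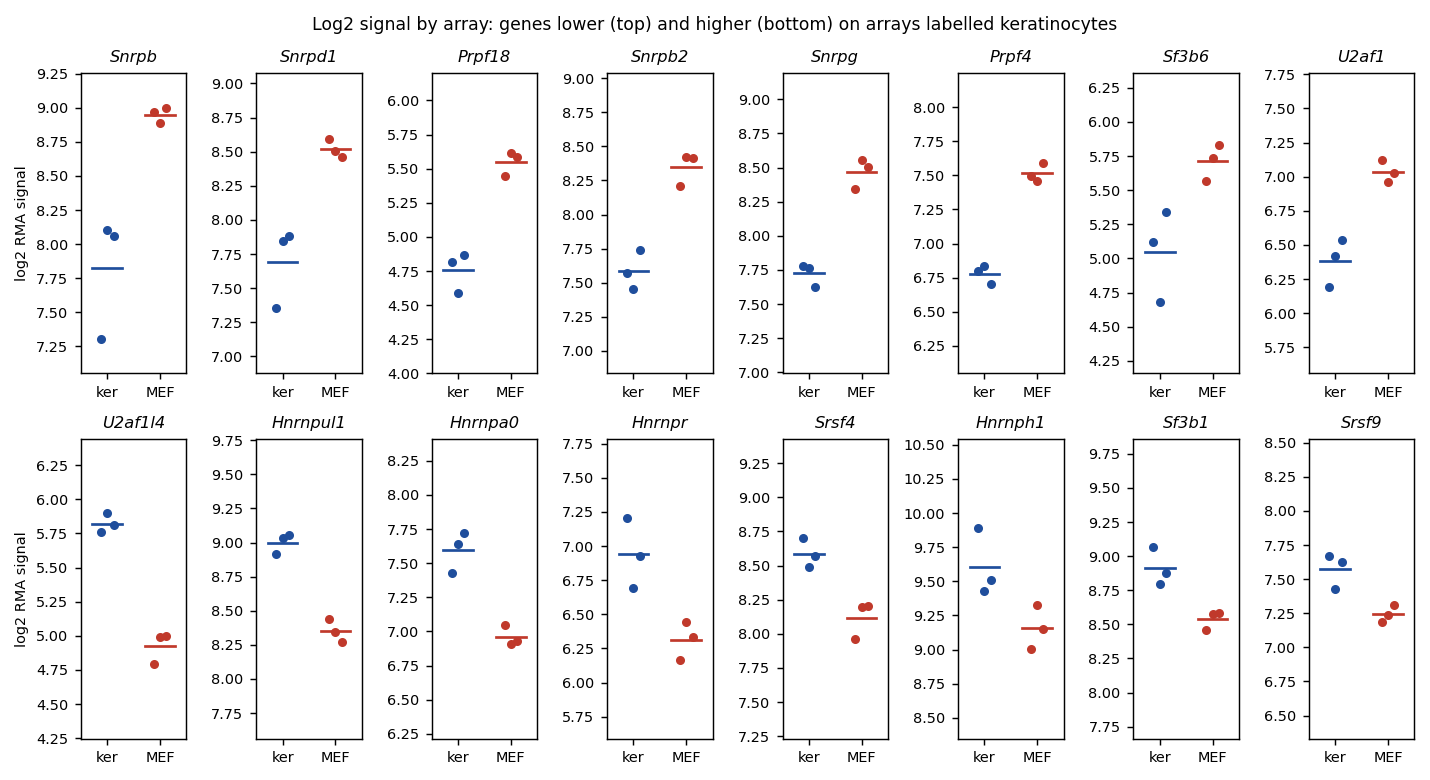
Log2 signal on each array (points) and group mean (line) for the 8 splicing genes with the largest called differences in each direction, with arrays labelled keratinocytes (ker) left of those labelled MEFs; each panel spans the same number of log2 units around its own centre. In every panel the 2 groups of 3 points are apart, and Snrpb, whose lowest point is 7.31, has the largest difference of means at −1.13.

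The 7 genes of the SF3A and SF3B subcomplexes, which clamp the U2 snRNP onto the branch site, split in direction. Of these, 2 were lower and 2 higher, beside 41.7% and 32.9% of all genes. Sf3b2 was 1.29-fold lower under the keratinocyte label, with 7.29, 7.43 and 7.35 there and 7.61, 7.72 and 7.82 under the MEF label (adjusted p = 0.00834). Sf3b1, the large subunit that holds the branch site adenosine, was 1.30-fold higher, with 9.07, 8.80 and 8.87 under the keratinocyte label and 8.46, 8.58 and 8.58 under the MEF label (difference 0.37 ± 0.10, SE, adjusted p = 0.0103). Neither gene overlapped between the labels. Sf3a3 passed narrowly as higher (difference 0.26, adjusted p = 0.0495) and lost that call when any one of the 6 arrays was left out. Sf3b6, which encodes the small subunit that touches the branch site, was lower (5.12, 4.68 and 5.34 under the keratinocyte label, 5.56, 5.74 and 5.83 under the MEF label, adjusted p = 0.00696), but these signals lay under background on all 6 arrays, so no fold is given. Sf3b3, Sf3a1 and Sf3b4 did not pass, with differences between −0.20 and 0.17.

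The U2AF heterodimer reads the 3′ splice site, its small subunit the AG at the intron end and its large subunit the pyrimidine tract. U2af1, the small subunit, read 6.19, 6.42 and 6.54 under the keratinocyte label and 7.13, 6.96 and 7.03 under the MEF label, 1.58-fold lower without overlap (difference −0.66 ± 0.11, SE, adjusted p = 0.000889). Its paralogue U2af1l4, which can replace it in the dimer, ran the other way, with 5.76, 5.90 and 5.81 under the keratinocyte label and 4.79, 4.99 and 5.00 under the MEF label (difference 0.90 ± 0.10, SE, adjusted p = 5.65e-05). U2af1l4 was above background on 2 arrays labelled keratinocytes and on none labelled MEFs, and since background was higher under the MEF label no fold can be bounded. U2af2, the large subunit, did not pass (difference 0.27 ± 0.12, SE, adjusted p = 0.0653).

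Of the 12 Prpf genes, 7 were lower under the keratinocyte label, 1 was higher and 4 did not pass, with a median difference of −0.35. Over all genes 41.7% were lower and 32.9% higher, with a median difference of −0.12. Prpf4, which encodes a protein of the U4/U6 snRNP, read 6.80, 6.84 and 6.70 under the keratinocyte label and 7.49, 7.46 and 7.59 under the MEF label, 1.66-fold lower (difference −0.73 ± 0.09, SE, adjusted p = 0.000117). Prpf8, the large scaffold around the catalytic RNA core, read 8.87, 8.90 and 8.83 under the keratinocyte label and 9.27, 9.28 and 9.33 under the MEF label, 1.34-fold lower (difference −0.43 ± 0.08, SE, adjusted p = 0.00173). Both genes were tight within a label and apart between labels. Prpf6, which bridges the U5 snRNP to the U4/U6 snRNP, was 1.41-fold lower (adjusted p = 0.00245), Prpf38a, of the complex that precedes activation, 1.38-fold lower (adjusted p = 0.00265), and Prpf19, the ubiquitin ligase of the activating complex, 1.21-fold lower (adjusted p = 0.0226). Prpf18, a factor of the second catalytic step, was lower too (4.82, 4.59 and 4.87 under the keratinocyte label, 5.45, 5.61 and 5.58 under the MEF label, adjusted p = 0.000211) but was under background on every array, as was Prpf40b, the gene called higher (difference 0.31, adjusted p = 0.0343). Prpf39, whose relative in yeast belongs to the U1 snRNP, read 6.16, 5.50 and 5.44 under the keratinocyte label and 6.06, 6.47 and 6.16 under the MEF label, so that the labels overlapped although it passed (adjusted p = 0.0403), and only 1 array of each label was above background. Prpf3, Prpf4b, Prpf38b and Prpf31 had differences between −0.27 and 0.11 that did not pass. With median centring Prpf19 and Prpf39 no longer passed.

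The 9 Srsf genes, which encode SR proteins, gave 3 higher and 3 lower, beside 32.9% higher and 41.7% lower over all genes. Srsf4 read 8.70, 8.49 and 8.57 under the keratinocyte label and 7.96, 8.19 and 8.20 under the MEF label, 1.38-fold higher without overlap (difference 0.47 ± 0.11, SE, adjusted p = 0.00423). Srsf9 and Srsf10, an SR protein known to repress splicing once dephosphorylated, were each 1.26-fold higher (adjusted p = 0.0161 and 0.0151). Srsf5 was 1.49-fold lower, with 8.99, 8.37 and 8.42 under the keratinocyte label and 8.99, 9.27 and 9.24 under the MEF label (difference −0.58 ± 0.17, SE, adjusted p = 0.0159). Replicate 1 read 8.99 under both labels, and the call was lost when replicate 2 or 3 of either label was left out. Srsf6 was 1.23-fold lower (adjusted p = 0.0161) and Srsf2, which binds exonic enhancers, 1.22-fold lower (adjusted p = 0.0200), both without overlap, and neither passed with median centring. Srsf1, the SR protein first described, differed by −0.22 ± 0.14 (SE, adjusted p = 0.166), Srsf3 by −0.05 (adjusted p = 0.623) and Srsf11 by 0.11 (adjusted p = 0.289).

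Of the 15 Hnrnp genes, 4 were higher, 2 were lower and 9 did not pass, and the median size of their differences was 0.11 on the log2 scale. Over all genes 32.9% were higher and 41.7% lower, with a median size of 0.57. Hnrnpul1, a relative of the nuclear scaffold protein hnRNP U, read 8.91, 9.03 and 9.05 under the keratinocyte label and 8.44, 8.34 and 8.27 under the MEF label, 1.57-fold higher (difference 0.65 ± 0.09, SE, adjusted p = 0.000304). Hnrnpa0, of the A/B family, read 7.43, 7.64 and 7.72 under the keratinocyte label and 7.05, 6.91 and 6.93 under the MEF label, 1.55-fold higher (difference 0.63 ± 0.11, SE, adjusted p = 0.000737). Neither gene overlapped between the labels. Hnrnpr, which encodes an RNA-binding protein related to Syncrip, was likewise higher, with 7.21, 6.69 and 6.93 under the keratinocyte label and 6.17, 6.44 and 6.33 under the MEF label, of which 1 was above background, so no fold is given (difference 0.63 ± 0.14, SE, adjusted p = 0.00418). The paralogues Hnrnph1 and Hnrnph2, whose proteins bind runs of G, went in opposite directions. Hnrnph1 read 9.89, 9.43 and 9.51 under the keratinocyte label and 9.00, 9.33 and 9.15 under the MEF label, 1.36-fold higher (adjusted p = 0.0216), whereas Hnrnph2 read 8.42, 7.79 and 7.90 under the keratinocyte label and 8.50, 8.70 and 8.61 under the MEF label, 1.48-fold lower (adjusted p = 0.0139). Neither passed the methods' t-test, and the call of Hnrnph1 was lost without replicate 1 labelled keratinocytes and without replicate 1 or 3 labelled MEFs. Hnrnpab, of the same A/B family as Hnrnpa0, was 1.29-fold lower (difference −0.37, adjusted p = 0.0198). The 9 that did not pass, Hnrnpf, Hnrnpm, Hnrnpll, Hnrnpu, Hnrnpk, Hnrnpc, Hnrnpd, Hnrnpul2 and Hnrnpa2b1, had differences between −0.25 and 0.11, and that of Hnrnpk, a C-rich RNA binder, was −0.01 ± 0.09 (SE, adjusted p = 0.917).

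Replicates of 1 label differed across whole role groups. Within the arrays labelled keratinocytes, replicate 1 was the highest of 3 in 12 of 15 hnRNP genes and 8 of 9 SR genes but the lowest in 6 of 10 Sm and snRNP genes, while over all 10261 genes it was the highest in 3734 and the lowest in 3702. Its median deviation from the other 2 arrays was 0.30 for hnRNP genes, 0.18 for SR genes and −0.19 for Sm and snRNP genes. For the Sm and snRNP genes replicate 3 labelled keratinocytes deviated more, by a median of 0.27, and was the highest in 7 of 10. Within the arrays labelled MEFs, replicate 1 was the lowest in 12 of 15 hnRNP genes and 7 of 9 SR genes, and over all genes in 5161 of 10261. Replicate 2 labelled MEFs was the highest in 12 of 15 hnRNP genes. The median deviation over the hnRNP genes was −0.20 for replicate 1 labelled MEFs. The median size of the hnRNP difference between labels was 0.11. These scales differ, because a deviation sets 1 array against the mean of 2 and the difference sets means of 3 arrays against each other. The source of these deviations was not tested.

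**Figure D3:**
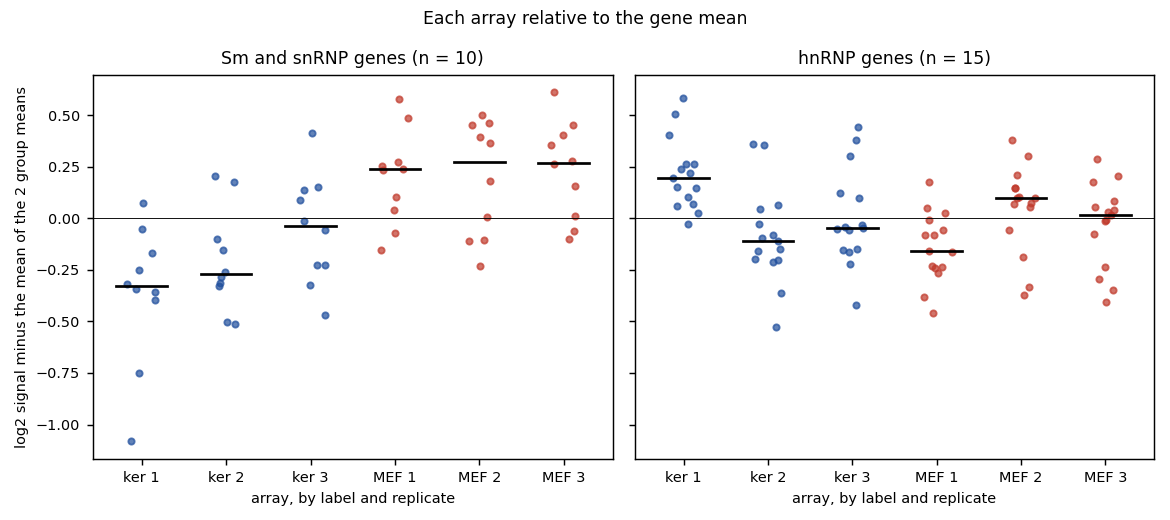
Log2 signal of each Sm and snRNP gene (left) and hnRNP gene (right) minus the mean of its 2 group means, by array, with the median over genes as a black line; ker 1 to ker 3 are the arrays labelled keratinocytes. For the hnRNP genes the median was 0.20, −0.11 and −0.05 under the keratinocyte label and −0.16, 0.10 and 0.01 under the MEF label, and for the Sm and snRNP genes it was negative on all 3 arrays labelled keratinocytes and positive on all 3 labelled MEFs.

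Proliferation genes were lower as well. Of 9 measured, 8 were lower under the keratinocyte label, beside 41.7% of all genes, and Plk1 did not pass. Their mean log2 level was 7.46 to 7.64 under the keratinocyte label and 8.34 to 8.47 under the MEF label. Bub1, a kinase of the spindle checkpoint, averaged 6.49 under the keratinocyte label and 7.92 under the MEF label (difference −1.43, adjusted p = 1.97e-05), and Mki67, a marker of cycling cells, averaged 8.01 under the keratinocyte label and 8.53 under the MEF label (difference −0.52, adjusted p = 0.00117). The part of proliferation in the splicing values was not tested.

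Several splicing genes have many processed copies in the genome, and their probe sets can read such copies. A probe set was taken to lie at its gene when at least 5 of the 20 probe sets nearest in identifier were of the gene's own chromosome. This held for 95.2% of all 11274 probe sets with a known chromosome and for 58 of the 74 splicing probe sets (78.4%). For 9 genes, Hnrnph2, Hnrnpf, Hnrnpk, Sf3b4, Snrpc, Snrpg, Srsf10, Srsf3 and Srsf5, the brightest probe set was among the other 16, so their values above are uncertain. Snrpc was lower in all 3 of its probe sets, by −1.07 (adjusted p = 0.00184) in the one beside its own chromosome and by −0.48 and −0.55 in the others. The Snrpc set beside its own chromosome was above background on only 1 of the 3 arrays labelled keratinocytes. Snrpg was lower by −0.52 (adjusted p = 9.74e-04) and Hnrnph2 by −0.66 (adjusted p = 0.00597) in their own sets, and Srsf10 was higher by 0.66 (adjusted p = 0.0043) in a set that was above background on no array labelled MEFs. Srsf3 was the gene whose call differed, averaging 5.40 under the keratinocyte label and 5.91 under the MEF label in its own set, which was under background on all arrays (difference −0.51, adjusted p = 0.00666), against −0.05 in the brightest. Sf3b4 differed by −0.19 (adjusted p = 0.405) in its own set and by 0.17 in the brightest, neither past the threshold. Of the 5 probe sets of Snrpd2, 1 was called, as higher (difference 0.34, adjusted p = 0.0339), and it lay beside identifiers of another chromosome. The Snrpd2 set beside its own chromosome was the brightest and did not pass (adjusted p = 0.0964). No gene had probe sets called in opposite directions.

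**Figure D4:**
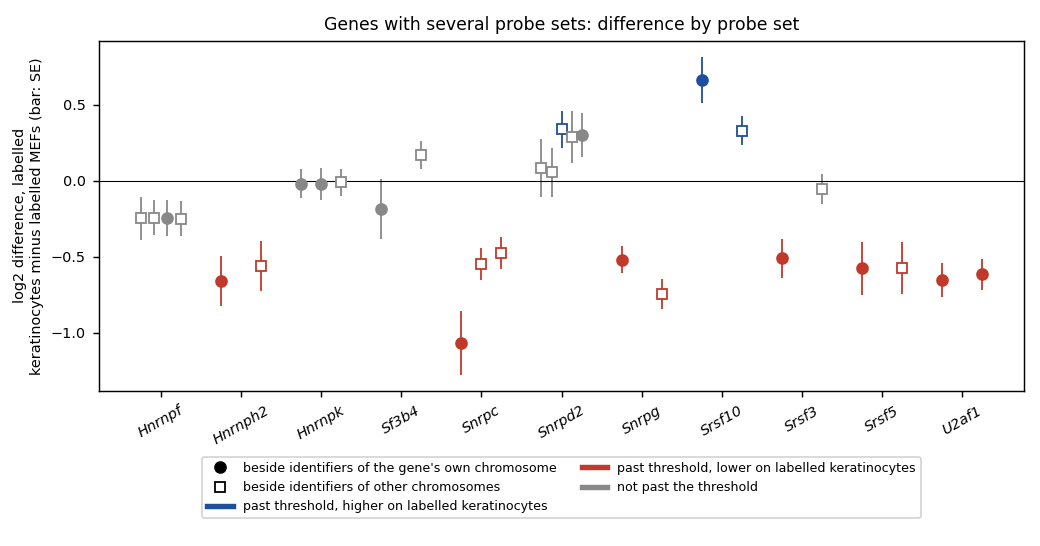
Log2 difference (labelled keratinocytes minus labelled MEFs, bar for the standard error) of every probe set of the 11 splicing genes that had several, with filled circles for sets beside identifiers of the gene's own chromosome and open squares for the others. The sets of Snrpc lie between −1.07 and −0.48, and those of Srsf3 at −0.51 and −0.05.

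Other genes of the splicing pathway without these symbol prefixes were taken from 8 lists of 114 genes, of which 98 were measured. On the arrays labelled keratinocytes 54 were lower, 13 were higher and 31 did not pass, with a median difference of −0.35, beside 41.7% lower and 32.9% higher over all genes. With median centring 44 were lower and 17 higher, beside 36.4% lower and 37.0% higher over all genes. Among 19 factors of the Prp19 complex and the catalytic steps, 15 were lower and 3 higher. Cwc22, which recruits the exon junction complex, read 6.60, 6.06 and 6.44 under the keratinocyte label and 7.52, 7.90 and 7.68 under the MEF label, 2.53-fold lower (adjusted p = 9.68e-05), and all 8 of its probe sets, which held 2 distinct sets of values, were lower. Ppil1, a prolyl isomerase of the spliceosome, read 5.76, 5.80 and 5.83 under the keratinocyte label and 7.25, 6.93 and 7.15 under the MEF label. It was lower (difference −1.31, adjusted p = 8.65e-06), but only 2 of its 3 values under the keratinocyte label were above background, so no fold is given. Neither gene overlapped between the labels.

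Assembly of the Sm ring onto the small RNAs is the task of the SMN and Gemin proteins. Of the 14 measured assembly genes 11 were lower and 1 higher, beside 41.7% lower and 32.9% higher over all genes. Gemin6 read 5.71, 4.99 and 5.79 under the keratinocyte label and 6.79, 7.27 and 7.06 under the MEF label (difference −1.54, adjusted p = 0.000289). Gemin4 read 5.66, 5.28 and 5.60 under the keratinocyte label and 6.96, 6.81 and 6.85 under the MEF label (difference −1.36, adjusted p = 1.57e-05). On the arrays labelled keratinocytes 2 of the 3 Gemin6 values and 1 of the 3 Gemin4 values were above background, so no fold is given. Among the 10 Lsm genes, whose proteins form a like ring on U6 RNA or on mRNA, 6 were lower and 1 higher. Lsm3 was 1.86-fold lower (adjusted p = 4.95e-05), and Lsm5, also lower (adjusted p = 0.00169), was under background on all arrays. Of 15 other snRNP proteins 8 were lower and none was higher. Eftud2, the GTPase of the U5 snRNP that works beside Prpf8, read 7.80, 7.91 and 7.90 under the keratinocyte label and 8.64, 8.67 and 8.62 under the MEF label, 1.71-fold lower (adjusted p = 6.04e-05), and Snrnp48, of the minor spliceosome, was lower (adjusted p = 0.000348) but under background.

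In each list nearer to splice site choice some genes were higher and some lower, beside 32.9% higher and 41.7% lower over all genes. Of 11 factors that act with the U2 snRNP at the 3′ splice site, 4 were lower and 1 higher. Rbm17 was 1.88-fold lower (adjusted p = 0.0001), with 7.64, 7.53 and 7.83 under the keratinocyte label and 8.56, 8.68 and 8.49 under the MEF label. Rbm5, a regulator of exon choice, was 1.86-fold higher (adjusted p = 8.15e-05), with 8.05, 8.06 and 7.92 under the keratinocyte label and 6.98, 7.25 and 7.12 under the MEF label. Both were free of overlap. Of 13 SR-related proteins and SR kinases, 4 were higher and 5 lower, among them Rnps1 (1.60-fold, adjusted p = 0.000154) and Srpk1, a kinase of SR proteins (1.55-fold, adjusted p = 0.00037). Of 7 hnRNP proteins with other symbols, 2 were higher, 2 lower and 3 did not pass. Rbmx, which encodes hnRNP G, read 7.46, 7.10 and 7.14 under the keratinocyte label and 5.45, 5.89 and 5.58 under the MEF label, where it was not above background on any array, and was at least 1.80-fold higher (adjusted p = 2.00e-05), taking for each array labelled MEFs the higher of its own signal and background. Ptbp2, the neuronal relative of the polypyrimidine tract binding protein, was higher (difference 0.74, adjusted p = 0.00204). Only 2 of its 3 values under the MEF label were above background, so no fold is given. Of 9 exon junction and cap binding genes, 1 was higher and 3 lower. Ncbp2, of the nuclear cap binding complex, was higher (adjusted p = 0.000565). It was above background on only 2 of the 3 arrays labelled MEFs, so no fold is given. Eif4a3, the helicase of the exon junction complex, was 1.49-fold lower (adjusted p = 0.00837).

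Promoter windows, from 250 bases before to 50 after an annotated start, were taken from a RefSeq table of GRCm38.p6 for 49 of the 56 splicing genes and searched on both strands for 3 motifs common in promoters of housekeeping genes: the ETS core CCGGAAG, the NRF1 motif (GCGC and TGCGC with any 1 base between) and the CCAAT box CCAAT. The ETS core was in a window of 18 of the 49 genes (36.7%), against 20.1% of the 8225 measured genes with a window and 9.93% of all 27025 genes of the table. The NRF1 motif was in 13 (26.5%, against 11.4% of measured genes and 5.19% of all), and CCAAT in 25 (51.0%, against 42.9% and 41.1%). By role, the ETS core was in 5 of 6 SF3A and SF3B genes, 4 of 8 Sm and snRNP genes and 2 of 13 hnRNP genes, and CCAAT was in 10 of 13 hnRNP genes and 2 of 8 Sm and snRNP genes. Of the genes higher under the keratinocyte label 2 of 11 had the ETS core, of the lower ones 8 of 18 and of those that did not pass 8 of 20. In the same order the NRF1 motif was in 3 of 11, 5 of 18 and 5 of 20. CCAAT was in 6 of 11, 9 of 18 and 10 of 20, so these 2 motifs hardly differed in share by call. These are letter matches and no measure of binding, and genes with several listed starts had more windows to match.

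Windows of 2 lower Sm and snRNP genes and 2 higher hnRNP genes are shown because they are among the largest differences of their roles and hold the motifs that differ most in share between those roles. Each is written 5′ to 3′ on the gene's strand in GRCm38.p6, with matches to the 3 motifs in capitals on either strand (CTTCCGG is the ETS core and ATTGG the CCAAT box read on the other strand): Snrpb2 at chr2:143062819-143063118 (+), Snrpg at chr6:86371290-86371589 (+), Hnrnpul1 at chr7:25754710-25755009 (−) and Hnrnpr, the first of its 2 listed windows, at chr4:136310692-136310991 (+).
Snrpb2: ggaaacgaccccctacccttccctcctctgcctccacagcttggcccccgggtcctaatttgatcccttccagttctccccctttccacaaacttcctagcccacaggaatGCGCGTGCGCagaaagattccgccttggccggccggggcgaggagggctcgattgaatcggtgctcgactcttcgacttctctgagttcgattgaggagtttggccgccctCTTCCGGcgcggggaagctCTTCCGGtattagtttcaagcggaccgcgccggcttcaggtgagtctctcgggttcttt
Snrpg: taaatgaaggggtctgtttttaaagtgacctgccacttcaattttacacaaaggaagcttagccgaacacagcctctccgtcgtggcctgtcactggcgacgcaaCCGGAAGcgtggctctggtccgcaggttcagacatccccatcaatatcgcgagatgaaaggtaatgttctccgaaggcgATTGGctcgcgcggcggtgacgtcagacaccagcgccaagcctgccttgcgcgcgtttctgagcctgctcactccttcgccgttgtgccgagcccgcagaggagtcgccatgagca
Hnrnpul1: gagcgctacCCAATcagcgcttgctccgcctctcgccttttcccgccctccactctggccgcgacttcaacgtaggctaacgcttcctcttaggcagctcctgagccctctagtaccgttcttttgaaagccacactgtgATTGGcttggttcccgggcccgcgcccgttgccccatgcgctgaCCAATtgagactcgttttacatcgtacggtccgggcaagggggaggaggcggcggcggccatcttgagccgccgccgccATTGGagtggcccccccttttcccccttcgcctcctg
Hnrnpr: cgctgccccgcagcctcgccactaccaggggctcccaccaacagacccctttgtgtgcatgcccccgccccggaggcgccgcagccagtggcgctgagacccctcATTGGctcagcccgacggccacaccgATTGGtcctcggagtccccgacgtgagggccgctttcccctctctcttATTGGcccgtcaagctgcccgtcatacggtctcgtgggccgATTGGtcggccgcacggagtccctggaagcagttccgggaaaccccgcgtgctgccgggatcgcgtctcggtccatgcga
The Snrpb2 window held 2 ETS cores and 1 NRF1 motif and no CCAAT box, and that of Snrpg held 1 ETS core and 1 CCAAT box. The windows of Hnrnpul1 and Hnrnpr each held 4 CCAAT boxes and neither of the other motifs. Of the other called hnRNP genes, the higher Hnrnpa0 and Hnrnph1 held 1 CCAAT box each in their first listed window. The lower Hnrnpab and Hnrnph2 held 3 each, and those that did not pass ranged from 0 in Hnrnpd to 4 in Hnrnpc. Of the other lower Sm and snRNP genes with a window, Snrpc held 1 ETS core and Snrpa1 held 0.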

How the data were processed

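RNA of 6 arrays was analysed, 3 labelled keratinocytes and 3 labelled MEFs, grouped by the sample labels. The authors deposited 1 table of log2 signals of 15648 probe sets. Their methods give RMA, run in oligo, whose version is 1.46.0 in the submitters' processing notes. That the table is this RMA output was inferred from its range and is uncertain. Which arrays went into one RMA run is not stated here. RMA forces arrays onto one distribution and can shrink differences of dim genes.

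Probe sets were named from the platform annotation, which gives 1 symbol for 11288, several for 645 and is without an entry for the rest. Of the 11288, 11274 were matched to RefSeq. Left out were 17 probe sets whose several symbols included one with the prefixes used. A gene is given by its brightest probe set. In R 4.3.3, limma 3.58.1 (lmFit, eBayes) was run over all 11288 probe sets with Benjamini-Hochberg adjustment and a threshold of 0.05. The code was also run on simulated independent noise with planted changes, which does not measure false calls or power in these arrays. Python 3.11.15 and matplotlib 3.10.9 drew the plots.

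Described in full are the 8 called genes with the largest non-overlapping differences in each direction, the 3 with the largest differences of each role and the 2 of each further list. The remaining splicing genes were named so that each is accounted for, and values given for them were chosen after they were seen, as were the comparisons between probe sets. Members, lists, motifs and tests were chosen with earlier results of these data known. The alternatives were a replicate block, each array left out, median centring, quantile normalization, 2 filters by signal, robust eBayes with a trend and array weights. Further ones were a fit of the whole table, an unpaired Student's t-test with equal variances, averaging of a gene's probe sets and symbols as annotated. Stricter calls took a log2 difference of at least 1 or an adjusted p under 0.01. Chosen after seeing the data were probe sets beside identifiers of the gene's own chromosome. The paper's methods name limma, not the t-test, for the arrays. The number of arrays limits the precision.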

Additional observations from a re-analysis of the deposited data

How the results depend on the processing

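None of the called splicing genes changed direction in any alternative run, and Cdh1 and Vim kept theirs. Counts of splicing genes moved most with the threshold. A log2 difference of at least 1 left 0 higher and 1 lower under the keratinocyte label. Among the other genes of the pathway it left 1 higher and 6 lower, beside 14.1% higher and 14.4% lower over all genes. An adjusted p under 0.01 left 5 higher and 14 lower splicing genes, and 8 higher and 43 lower pathway genes. Over all genes it left 27.4% higher and 34.1% lower. Leaving out each array in turn gave 7 to 11 splicing genes higher and 15 to 23 lower, 10 to 12 pathway genes higher and 44 to 58 lower, and a median splicing difference of −0.12 to −0.02. The lowest counts, 7 and 15, came without replicate 3 labelled MEFs, when 10 calls were lost (Hnrnpab, Hnrnph1, Prpf19, Prpf39, Prpf40b, Sf3a3, Srsf10, Srsf2, Srsf5 and Srsf6). Without replicates 1, 2 and 3 labelled keratinocytes in turn, 3, 7 and 4 calls were lost (Hnrnph1, Prpf19 and Sf3a3; Hnrnpab, Prpf39, Prpf40b, Sf3a3, Srsf2, Srsf5 and Srsf6; Prpf39, Prpf40b, Sf3a3 and Srsf5), and without replicates 1 and 2 labelled MEFs 4 and 6 (Hnrnph1, Prpf19, Sf3a3 and Srsf9; Hnrnpab, Prpf39, Prpf40b, Sf3a3, Srsf2 and Srsf5). The median splicing difference was 0.041 with median centring and −0.14 with the probe sets beside the gene's own chromosome, chosen after seeing the data, where Srsf3 became lower. The unpaired Student's t-test at an unadjusted p under 0.05 gave 9 higher and 18 lower splicing genes, without Hnrnph1, Hnrnph2, Prpf39, Sf3a3 and Srsf5. After Benjamini-Hochberg adjustment it gave 8 and 17, without Hnrnpab and Prpf40b as well. Over all genes this t-test gave 32.5% higher and 40.2% lower unadjusted, and 31.0% and 37.9% adjusted.

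Across the labels, the deviations of same-numbered arrays from their group means correlated at −0.188, −0.147 and −0.0627. Those of differently numbered arrays correlated at −0.0422 to 0.167. With so few arrays per label these values are tied to one another, so they cannot decide whether the replicate numbers pair the arrays. With the replicate number as a block, 9 splicing genes were higher and 17 lower, and 9 and 46 pathway genes. Over all genes 30.4% were higher and 38.4% lower with that block. The background rests on 10 probe sets and is rough, so calls of genes near it, such as Prpf18, Prpf40b, Sf3b6 and U2af1l4, say least about level.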
